A study of Danio rerio with 16 samples.

Results

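This section describes how ventricles of nr4a1 mutant zebrafish differed from wild-type ventricles at 2 days post-cryoinjury (dpci), within the inflammatory phase that follows the freezing of the ventricular apex. The comparison set 2 mutant samples against 2 wild-type samples, 4 of the 16 bulk RNA-seq samples of the series, which also sampled both genotypes before injury (0 dpci) and at 7 and 21 dpci. Of 31351 genes listed, 17275 were tested, those reaching 10 counts in 2 or more of these 4 samples. The mutants carried the nc40 allele, a single inserted base in the second exon made with CRISPR/Cas9, whose shifted frame stops before the DNA- and ligand-binding domains. Adult fish of both genotypes received the same injury with a cooled probe. RNA came from whole ventricles, so injured and spared tissue were measured together, and how many ventricles went into a sample is not given in the sources used here. Nothing states that the samples were separate cohorts, so the p-values measure only the spread between samples of a condition, estimated over all 16 samples.

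Nr4a1 belongs to the NR4A family of orphan nuclear receptors, immediate early transcription factors that are switched on within a short time by stress, cytokines and growth factors. In mammals they restrain inflammatory gene expression in macrophages and T cells, and in muscle and liver they act on glucose and lipid metabolism. In the first days after cryoinjury of the zebrafish heart, neutrophils and macrophages enter the wound, thrombocytes and fibrin seal it, the epicardium and fibroblasts begin to lay down matrix, and border zone cardiomyocytes start to dedifferentiate.

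The 4 libraries were of similar depth, with 14881714 and 17121336 counts in mutants and 16595278 and 17070593 counts in wild type. Samples of a genotype stood closer to each other (distances on the log2 scale over all tested genes of 43.1 in mutants and 41.4 in wild type) than to any sample of the other genotype (79.5 to 81). Replicates nonetheless differed by more than counting noise, with a chi-square per degree of freedom of 2.35 in mutants and 1.74 in wild type. Mitochondrially encoded genes took between 11.3% and 12.2% of counts in each of the 4 libraries. Levels below are CPM, counts scaled to 1000000 per library with TMM factors. They are not divided by gene length, so levels of different genes are not compared. A gene is called higher or lower where edgeR's quasi-likelihood test gave a Benjamini-Hochberg adjusted p under 0.05 over all tested genes and the log2 fold change, mutant over wild type, was beyond 0.5 in size. Errors of fold changes are approximate standard errors (SE), derived from the fold change and the F statistic of that test. They rest on the spread shared over all 16 samples, not on the 4 samples of 2 dpci alone.

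The targeted gene itself could not check the genotype by its level. nr4a1 stood at 83.3 and 82.0 CPM in mutants, against 84.9 and 85.9 CPM in wild type (on the log2 scale a change of −0.047 ± 0.049, edgeR adjusted p = 0.481), and reads per gene cannot show a single inserted base. Before injury the log2 fold change was 1.43, and the difference between the stages passed (interaction of stage and genotype, 2 minus 0 dpci, −1.48, edgeR adjusted p = 2.77e-25). From 0 to 2 dpci the log2 fold change of nr4a1 was 0.56 in mutants and 2.04 in wild type. Of its paralogs, nr4a3 stood at 8.36 and 10 CPM in mutants against 5.71 and 3.88 CPM in wild type, higher by a log2 fold change of 0.95 ± 0.155 (edgeR adjusted p = 7.33e-07). In contrast, nr4a2a stood at 0.807 and 0.790 CPM in mutants against 2.25 and 3.62 CPM in wild type (−1.87 ± 0.326, edgeR adjusted p = 2.65e-06). The paralog nr4a2b did not pass, at 2.48 and 2.52 CPM in mutants against 2.3 and 2.5 CPM in wild type.

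Across the transcriptome, 1537 genes were higher in mutants (8.90% of those tested) and 1580 were lower (9.15%). The log2 fold change exceeded 1 in 500 of the higher and was below −1 in 624 of the lower genes. With the fold threshold placed inside the test, 571 genes were called higher and 648 lower. The median over all tested genes was 0.017. The filter let 472 genes pass through 1 genotype alone, and counts of genes include them. Of the 17275 genes, 65 had no more than 3 counts in both mutant samples and 28 had no more than 3 in both wild-type samples. The plot of fold change by level shows called genes in both directions over most of the range of levels.

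**Figure D1:**
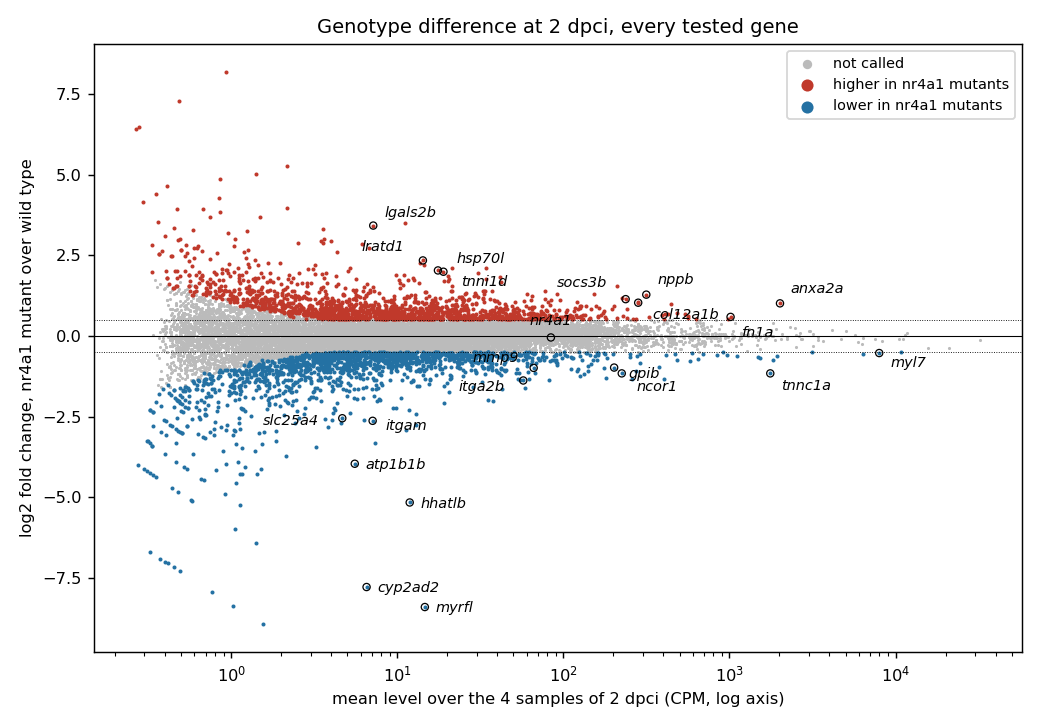
Log2 fold change of nr4a1 mutant over wild type at 2 dpci (vertical) against the mean CPM of the 4 samples (horizontal, log axis) for each of the 17275 tested genes, with 1537 called higher in red and 1580 called lower in blue. Dotted lines mark the fold threshold of 0.5, and circled genes are described in the text.

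Most genes called at 2 dpci were not called in the same direction in the uninjured heart, but a missing call there does not show a difference between the stages. The interaction with 0 dpci passed in the called direction in 714 of the 1537 higher and 814 of the 1580 lower genes. These genes were chosen by their 2 dpci difference, which is part of the interaction. The counts therefore lean towards the called direction and are no separate evidence. At 0 dpci 12.1% of all tested genes were called higher and 12% lower in mutants. The genes called higher at both stages numbered 501, which is 32.6% of those at 2 dpci and 23.9% of those at 0 dpci, and 453 were lower at both (28.7% and 21.8%). A further 144 genes were higher at 2 dpci and lower at 0 dpci, and 172 were lower at 2 dpci and higher at 0 dpci. The interaction test found a genotype difference at 2 dpci that was unlike that at 0 dpci in 36.9% of genes, 18.6% shifted towards higher and 18.3% towards lower levels in mutants. The same test passed in 26.4% of genes against 7 dpci and in 32.3% against 21 dpci. Genes called in a direction at 2 dpci and in that direction at no other stage, with all 3 interactions passed the same way, numbered 276 higher (1.60%) and 330 lower (1.91%). They are described below as called at 2 dpci alone, although some were called the opposite way at another stage. Since passing the interactions is part of that definition, interaction p-values given for such genes are no separate evidence.

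The extracellular matrix and the annexin system gave differences in abundant transcripts. anxa2a, whose product annexin A2 binds plasminogen and its activator at the cell surface, stood at 2706 and 2674 CPM in mutants, against 1329 and 1348 CPM in wild type (on the log2 scale a change of 1.01 ± 0.0291, edgeR adjusted p = 5.64e-39). Its partner s100a10b was higher as well, at 487 and 460 CPM in mutants against 326 and 340 CPM in wild type (0.51 ± 0.039), a call lost without mutant sample 1 (0.47) or wild-type sample 1 (0.48). Fibronectin, fn1a, part of the provisional matrix, reached 1181 and 1257 CPM in mutants against 815 and 808 CPM in wild type (0.59 ± 0.0326). For each of these genes the samples of the genotypes were well apart. At 0 dpci the order was the opposite for anxa2a (−1.03, interaction 2.04) and fn1a (−1.05, interaction 1.63), with edgeR adjusted p of the interactions of 2.32e-47 for anxa2a and 4.86e-34 for fn1a.

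Collagen XII, a fibril-associated collagen deposited early in the zebrafish wound, behaved in the same way. col12a1b stood at 366 and 390 CPM in mutants against 185 and 186 CPM in wild type (on the log2 scale a change of 1.03 ± 0.0416), having been lower in uninjured mutants (−2.44, interaction 3.47, edgeR adjusted p = 2.37e-26). col12a1a stood at 514 and 529 CPM in mutants against 314 and 340 CPM in wild type (0.67 ± 0.036). The main fibrillar collagen genes stayed under the fold threshold. col1a1a was at 976 and 1015 CPM in mutants against 759 and 786 CPM in wild type (0.37 ± 0.0319). For col1a2 the levels were 836 and 874 CPM in mutants against 665 and 710 CPM in wild type (0.32 ± 0.0311). Of 35 tested collagen genes, 7 were higher and 2 lower (20% and 5.71%, against 8.90% and 9.15% of all genes). Their median log2 fold change was 0.22, against −0.32 for the same genes at 0 dpci. The median was 0.35 without mutant sample 1 and 0.12 without mutant sample 2, and of the lower calls 0 remained without mutant sample 1 or wild-type sample 2 and 1 without wild-type sample 1, with 0 by DESeq2.

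Of 93 other matrix and remodelling genes, 23 were higher and 7 lower (24.7% and 7.53% of the list, against the 8.90% and 9.15% above), with a median of 0.21, and 4 were lower without wild-type sample 2. Hyaluronan synthesis was represented by has1, at 43.6 and 40.8 CPM in mutants against 16.6 and 18.2 CPM in wild type (1.28 ± 0.0946). The hyaluronan-binding proteoglycan versican was represented by vcanb, at 117 and 123 CPM in mutants against 65.2 and 73.2 CPM in wild type (0.79 ± 0.0573). The aggrecan and versican protease adamts1 stood at 31.2 and 31.0 CPM in mutants against 9.74 and 9.33 CPM in wild type (1.71 ± 0.0999). The metalloprotease inhibitor timp2b stood at 388 and 365 CPM in mutants against 188 and 177 CPM in wild type (1.05 ± 0.0418). Going the other way, the gelatinase mmp9 was at 46.3 and 42.3 CPM in mutants against 87 and 89.2 CPM in wild type (−0.99 ± 0.0676, edgeR adjusted p = 4.87e-20), though it was higher in mutants at every other stage (1.19 at 0 dpci, 0.72 at 7 dpci and 1.65 at 21 dpci). postnb, encoding periostin of activated fibroblasts, was also lower, with 62.6 and 60.8 CPM in mutants against 87.1 and 91.6 CPM in wild type (−0.54 ± 0.0519, or −0.50 and no longer called without wild-type sample 2). Of the genes called at 2 dpci alone, vcanb, hapln1a, tgfbi, tgfb3, thbs2a and adamts15a were higher and thbs1b and mmp9 lower, a set named after the values were seen. The call of thbs2a was lost without mutant sample 2 (0.40).

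The epicardium is a source of these proteins, and 5 of its 27 tested genes were higher and 1 lower, with a median of 0.29. These were 18.5% and 3.7% of the list, against 8.90% and 9.15% of all genes. The summed level of the list was 11360 and 11383 CPM in mutants, against 8807 and 8937 CPM in wild type. Abundant members weigh most in that sum, and the genes named below make up only a small part of its difference. The lower member was cldn11a, with log2 fold changes from −1.09 to −0.93 over all fits. clu, encoding the secreted chaperone clusterin, was at 308 and 319 CPM in mutants against 139 and 140 CPM in wild type (on the log2 scale a change of 1.17 ± 0.0373). The link protein gene hapln1a was at 105 and 101 CPM in mutants against 69.8 and 64.8 CPM in wild type (0.62 ± 0.0485). fstl1b, encoding a follistatin-like protein secreted by the epicardium, was at 491 and 468 CPM in mutants against 303 and 303 CPM in wild type (0.66 ± 0.0341). The lineage marker tcf21 differed by less than the threshold, at 33.8 and 34.2 CPM in mutants against 28.1 and 27.6 CPM in wild type (0.29 ± 0.077). In whole-ventricle RNA, more cells of a type and more RNA per cell cannot be told apart, here or in any group below, and the part of epicardial markers in the matrix differences was not tested. Of 33 endothelial and endocardial genes 2 were higher and 4 lower (6.06% and 12.1%, against 8.90% and 9.15% of all genes). Of 13 smooth muscle and bulbus genes 1 (7.69%, against 9.15% of all genes), the elastin gene elnb, was lower (−0.86 ± 0.118).

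**Figure D2:**
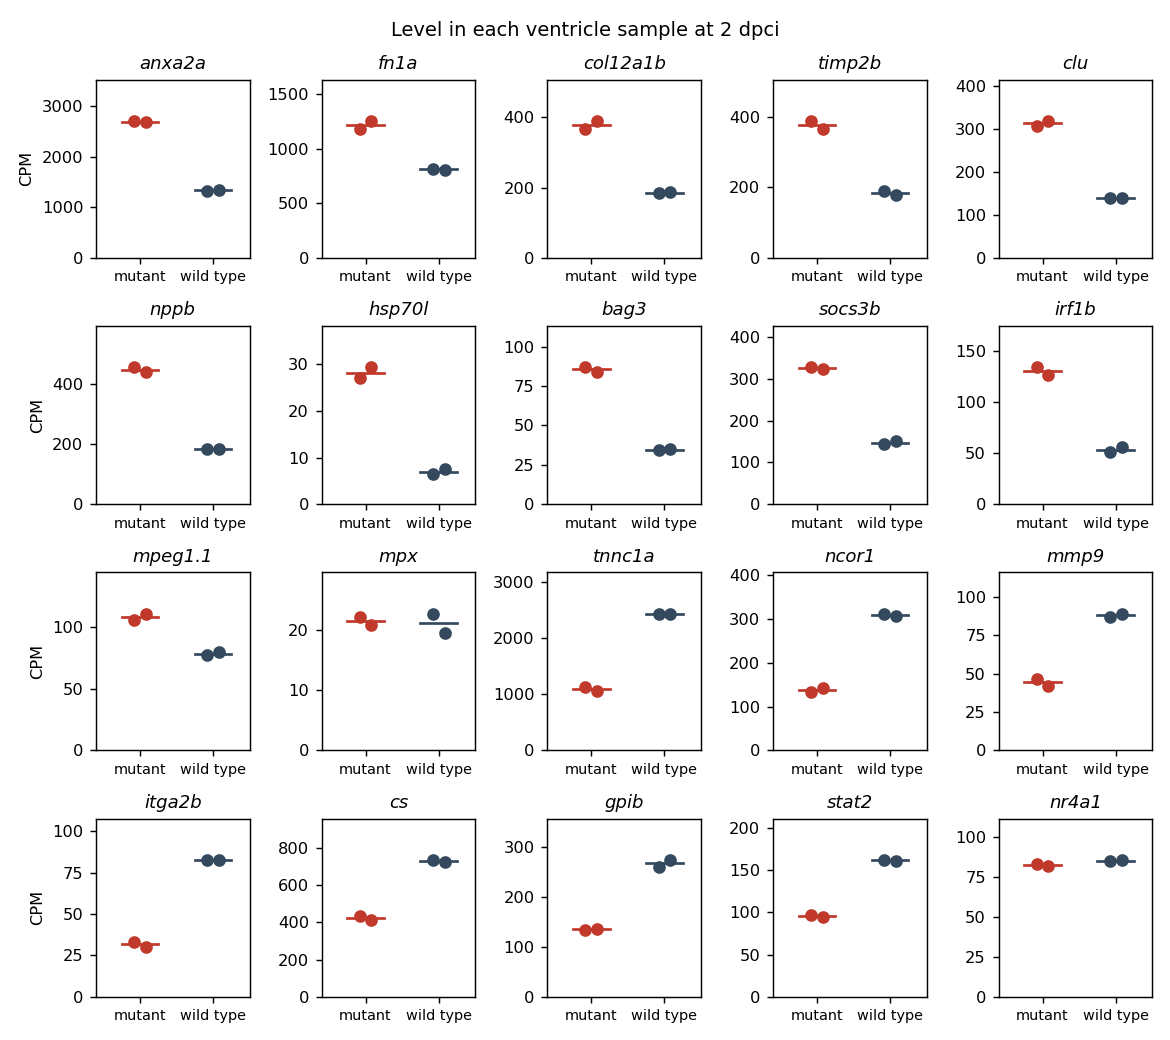
Level in CPM (vertical, from 0) of 20 genes in each of the 2 nr4a1 mutant samples (red, left) and 2 wild-type samples (dark blue, right) at 2 dpci, with lines at the means. The samples of the genotypes stand apart in each panel except mpx, where they overlap, and for nr4a1 the gap is small (83.3 and 82.0 CPM in mutants against 84.9 and 85.9 CPM in wild type).

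Of 20 tested macrophage markers 4 were higher and 1 lower (20% and 5%, against 8.90% and 9.15% of all genes), with a median log2 fold change of 0.15, or 0.078 without mutant sample 2. Their summed levels were 1756 and 1743 CPM in mutants against 1520 and 1517 CPM in wild type. mpeg1.1, the perforin-like gene that marks macrophages, was at 106 and 111 CPM in mutants against 77.3 and 79.5 CPM in wild type, with a log2 fold change of 0.47 ± 0.0533 that was short of the fold threshold. Its relative mpeg1.2 passed, at 18.1 and 17.8 CPM in mutants against 8.74 and 8.52 CPM in wild type (1.05 ± 0.123), as did mfap4 (0.76 ± 0.0828), the cathepsin gene ctss2.1 (0.58 ± 0.0398) and the scavenger receptor marco (0.54 ± 0.0512, or 0.49 and not called without wild-type sample 1). The complement genes c1qa (−0.12 ± 0.0686) and c1qb (0.016 ± 0.052), which macrophages also express, were not called, and were looked up after the calls were known. The lower marker was csf1rb, a receptor for colony-stimulating factor 1, at 2.31 and 2.07 CPM in mutants against 3.87 and 5.25 CPM in wild type (−1.06 ± 0.222). The 20 markers differed at other stages too, with 7 higher and 2 lower at 0 dpci (median 0.37). Their median was 0.19 at 7 dpci and 0.60 at 21 dpci, against 0.0005 and 0.018 over all genes. The interaction with 0 dpci was downward in 8 and upward in 5 (40% and 25%, against 18.3% and 18.6% of all genes).

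Of 18 tested neutrophil markers 3 were higher and 1, mmp9, lower (16.7% and 5.56%, against 8.90% and 9.15% of all genes), but 1 was higher without mutant sample 1, mutant sample 2 or wild-type sample 2. mpx, the myeloperoxidase gene, was at 22.1 and 20.8 CPM in mutants and 22.7 and 19.5 CPM in wild type, so the samples overlapped (log2 fold change 0.021 ± 0.108, edgeR adjusted p = 0.902). Before injury its log2 fold change was 2.09, and the difference between the stages passed (interaction −2.07, edgeR adjusted p = 6.53e-16). At 0 dpci 12 of the 18 were higher in mutants. The NADPH oxidase subunits cybb (0.53 ± 0.0699) and ncf4 (0.54 ± 0.14) were among those higher, but both calls rested on single samples. Without wild-type sample 2 the values were 0.47 for cybb and 0.46 for ncf4, without mutant sample 1 cybb was at 0.48, and without mutant sample 2 ncf4 was at 0.48, each under the threshold. The median over the list was 1.06 at 0 dpci and 0.23 at 2 dpci, and its summed level at 2 dpci was 821 and 793 CPM in mutants against 756 and 737 CPM in wild type. lyz fell under the count filter. itgam, encoding an integrin alpha chain of myeloid cells, was at 2.48 and 1.53 CPM in mutants against 11.2 and 13.2 CPM in wild type (−2.63 ± 0.208), and was also lower at the other stages (−1.91, −2.17 and −2.76 at 0, 7 and 21 dpci). Its beta chain itgb2 was at 163 and 152 CPM in mutants against 136 and 139 CPM in wild type (0.20 ± 0.0453). Only 10 lymphocyte markers could be tested, of which zap70 was higher (1.06 ± 0.421), a call lost without mutant sample 2 (0.68), wild-type sample 1 (0.81) or wild-type sample 2 (1.36).

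Among cytokine genes, 12 of 60 tested members of the IL-1, TNF and NF-kB list were higher and 3 lower. These were 20% and 5%, against 8.90% and 9.15% of all genes. socs3b, a feedback inhibitor of cytokine receptors that signal through Stat3, was at 328 and 324 CPM in mutants against 145 and 150 CPM in wild type (on the log2 scale a change of 1.14 ± 0.0406, edgeR adjusted p = 3.27e-34). il11a, a cytokine of the IL-6 family that is induced in regenerating zebrafish tissue, was at 20.3 and 20.6 CPM in mutants against 7.22 and 6.02 CPM in wild type (1.63 ± 0.14). Its paralog il11b went the other way (−0.71 ± 0.198), with −0.57 and no call without mutant sample 2 or without wild-type sample 1. acod1, whose enzyme makes itaconate in activated macrophages, was at 21 and 17.8 CPM in mutants against 6.96 and 4.79 CPM in wild type (1.72 ± 0.14). il1b, at 21.5 and 21 CPM in mutants against 15.2 and 15.8 CPM in wild type, did not reach the fold threshold (0.45 ± 0.111). tnfa had under 10 counts in every sample and was not tested, and tnfb, looked up after the calls were known, did not pass (0.32 ± 0.145, edgeR adjusted p = 0.0767). The inhibitor of NF-kB signalling tnfaip3, named after its values were seen, was higher at 2 dpci alone, with 15.6 and 18.3 CPM in mutants against 8.38 and 7.96 CPM in wild type (1.06 ± 0.121). For the whole list, 20 members were higher and 7 lower at 0 dpci, with a median of 0.15 there and 0.22 at 2 dpci. The interaction with 0 dpci was upward in 17 members and downward in 13 (28.3% and 21.7%, against 18.6% and 18.3% of all genes).

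Of 38 tested chemokine and receptor genes 11 were higher and 3 lower (28.9% and 7.89%, against 8.90% and 9.15% of all genes). The filter let 4 of the 38 pass through 1 genotype alone, against 472 of all 17275 genes, which can raise these shares. With 10 counts required in each of the 4 samples, 9 members were higher. cxcl8a, a neutrophil attractant, was at 6.98 and 6.91 CPM in mutants against 3.09 and 3.52 CPM in wild type (on the log2 scale a change of 1.07 ± 0.197). cxcl18b, another neutrophil attractant of fish and named after its values were seen, was at 110 and 109 CPM in mutants against 54.2 and 51.8 CPM in wild type (1.05 ± 0.0614). The lower members were ccr11.1 (−2.94 ± 0.36), ccl35.1 (−1.19 ± 0.179) and ccr2, the receptor of inflammatory monocytes in mammals, at 3.06 and 3.11 CPM in mutants against 7.49 and 6.48 CPM in wild type (−1.18 ± 0.215). The part of leukocyte numbers in these differences was not tested.

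Of 57 tested interferon-stimulated genes 20 were higher and 1 lower, well above and below the shares of all genes. Their median log2 fold change was 0.35, against 0.028 at 0 dpci, 0.093 at 7 dpci and 0.64 at 21 dpci. The largest median was thus at 21 dpci and not at 2 dpci. The antiviral GTPase gene mxb was at 6.4 and 6.27 CPM in mutants against 2.3 and 2.04 CPM in wild type (1.54 ± 0.246), and mxf (1.80 ± 0.225) and mxc (1.42 ± 0.184) were also higher. Mx genes are near-identical copies between which reads may be split, so their separate values are uncertain. The transcription factor gene irf1b was at 134 and 126 CPM in mutants against 50.9 and 55.6 CPM in wild type (1.29 ± 0.0563, edgeR adjusted p = 1.64e-29). Of 33 interferon regulators and receptors, 5 were higher and 2 lower (15.2% and 6.06%, against 8.90% and 9.15% of all genes). stat2, a subunit of the factor that type I interferon activates, was at 97 and 94.4 CPM in mutants against 162 and 161 CPM in wild type (−0.76 ± 0.0448). The RNA sensor gene dhx58 was the other lower one (−0.66 ± 0.117). The lower interferon-stimulated gene was cmpk2 (−0.50 ± 0.204), whose call was kept in 5 of 13 alternative settings. It was lost without mutant sample 1 (−0.44), mutant sample 2 (−0.58) or wild-type sample 2 (−0.35).

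Of 43 tested MHC and antigen presentation genes 14 were higher and 4 lower (32.6% and 9.3%, against 8.90% and 9.15% of all genes). Several of the higher ones, which encode parts of the immunoproteasome and of peptide loading, are on the interferon list as well. psmb9a, a catalytic subunit, was at 29.6 and 29.7 CPM in mutants against 12.6 and 13.5 CPM in wild type (on the log2 scale a change of 1.19 ± 0.0986). tapbp.2, encoding a tapasin that loads class I molecules, was at 15 and 16.9 CPM in mutants against 6.96 and 6.53 CPM in wild type (1.25 ± 0.129). psmb10, called at 2 dpci alone and named after its values were seen, was at 50.6 and 52.1 CPM in mutants against 26.7 and 28 CPM in wild type (0.91 ± 0.0697). b2m, the class I light chain, named likewise, was at 762 and 723 CPM in mutants against 524 and 495 CPM in wild type (0.54 ± 0.0329). In the class II group mhc2b was at 3.86 and 4.79 CPM in mutants against 1.31 and 1.48 CPM in wild type (1.64 ± 0.238), while cd74a, the invariant chain, looked up after the calls were known, was not called (0.061 ± 0.039). The class I gene mhc1uba was lower, with 0.173 and 0.247 CPM in mutants against 2.2 and 2.91 CPM in wild type (−3.55 ± 0.429), and lower at every other stage. Class I and class II genes occur as near-identical copies between which reads may be split, so their separate values are uncertain.

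Of the 38 lists, heat shock and chaperone genes had the highest share of higher members, 27 of 68 tested, with 1 lower. These were 39.7% and 1.47%, against 8.90% and 9.15% of all genes, and the median log2 fold change was 0.31. hsp70l, the heat-inducible Hsp70 of zebrafish, was at 27 and 29.4 CPM in mutants against 6.39 and 7.45 CPM in wild type (2.03 ± 0.105, edgeR adjusted p = 1.04e-25). Its cochaperone bag3, which guides damaged filamin to autophagy in muscle, was at 86.9 and 84.0 CPM in mutants against 34.2 and 34.8 CPM in wild type (1.31 ± 0.0566). dnajb5, of the Hsp40 family, was at 6.11 and 5.03 CPM in mutants against 1.78 and 1.17 CPM in wild type (1.91 ± 0.246). The differences of hsp70l (interaction −0.23) and dnajb5 (interaction 0.67) did not pass the test against those at 0 dpci, with edgeR adjusted p of the interactions of 0.225 for hsp70l and 0.112 for dnajb5. Inducible Hsp70 genes are near-identical copies, so reads may be split between them. The lower member was cryabb, a small heat shock protein gene (−0.66 ± 0.151).

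A different set of genes of the heat shock and chaperone list, not all of them chaperones, was called at 2 dpci alone. All were named after their values were seen. hspa5, encoding the BiP chaperone of the endoplasmic reticulum, was at 598 and 605 CPM in mutants against 362 and 374 CPM in wild type (on the log2 scale a change of 0.71 ± 0.0354), against 0.16 at 0 dpci (interaction 0.55, edgeR adjusted p = 7.22e-14). xbp1, a transcription factor gene of the unfolded protein response, was at 309 and 315 CPM in mutants against 169 and 177 CPM in wild type (0.85 ± 0.0395). ddit3, a stress factor downstream of that response, was at 42.7 and 45.4 CPM in mutants against 27.6 and 27.6 CPM in wild type (0.68 ± 0.069). The cytosolic members were hspa4a (0.77 ± 0.0457), bag2 (0.98 ± 0.109), dnajb4 (0.63 ± 0.0919) and cdc37 (0.55 ± 0.053), the call of cdc37 being lost without wild-type sample 1 (0.49). These 7 genes were 10.3% of the 68 tested, against 1.60% of all genes.

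AP-1 and other immediate early genes were higher in 19 of 58 cases and lower in 2 (32.8% and 3.45%). All genes gave 8.90% and 9.15%, and the list's median log2 fold change was 0.30. fosl1a, a Fos family gene, was at 42.7 and 42.4 CPM in mutants against 19.4 and 17.5 CPM in wild type (1.21 ± 0.0862), and jund, which pairs with Fos proteins, was higher as well (0.86 ± 0.059). The growth factor response gene egr1 was not called, with 158 and 156 CPM in mutants and 153 and 162 CPM in wild type (−0.0075 ± 0.0403). Before injury 31 members were higher in mutants and 3 lower, with a median of 0.53. The interaction was downward in 26 of its members and upward in 14, against the 18.3% and 18.6% of all genes, so downward shifts outnumbered upward ones. The stress factor gene atf3, named after its values were seen, was an example, with a log2 fold change of 0.99 ± 0.0665 at 2 dpci and 4.18 at 0 dpci (interaction −3.19, edgeR adjusted p = 1.21e-35).

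**Figure D3:**
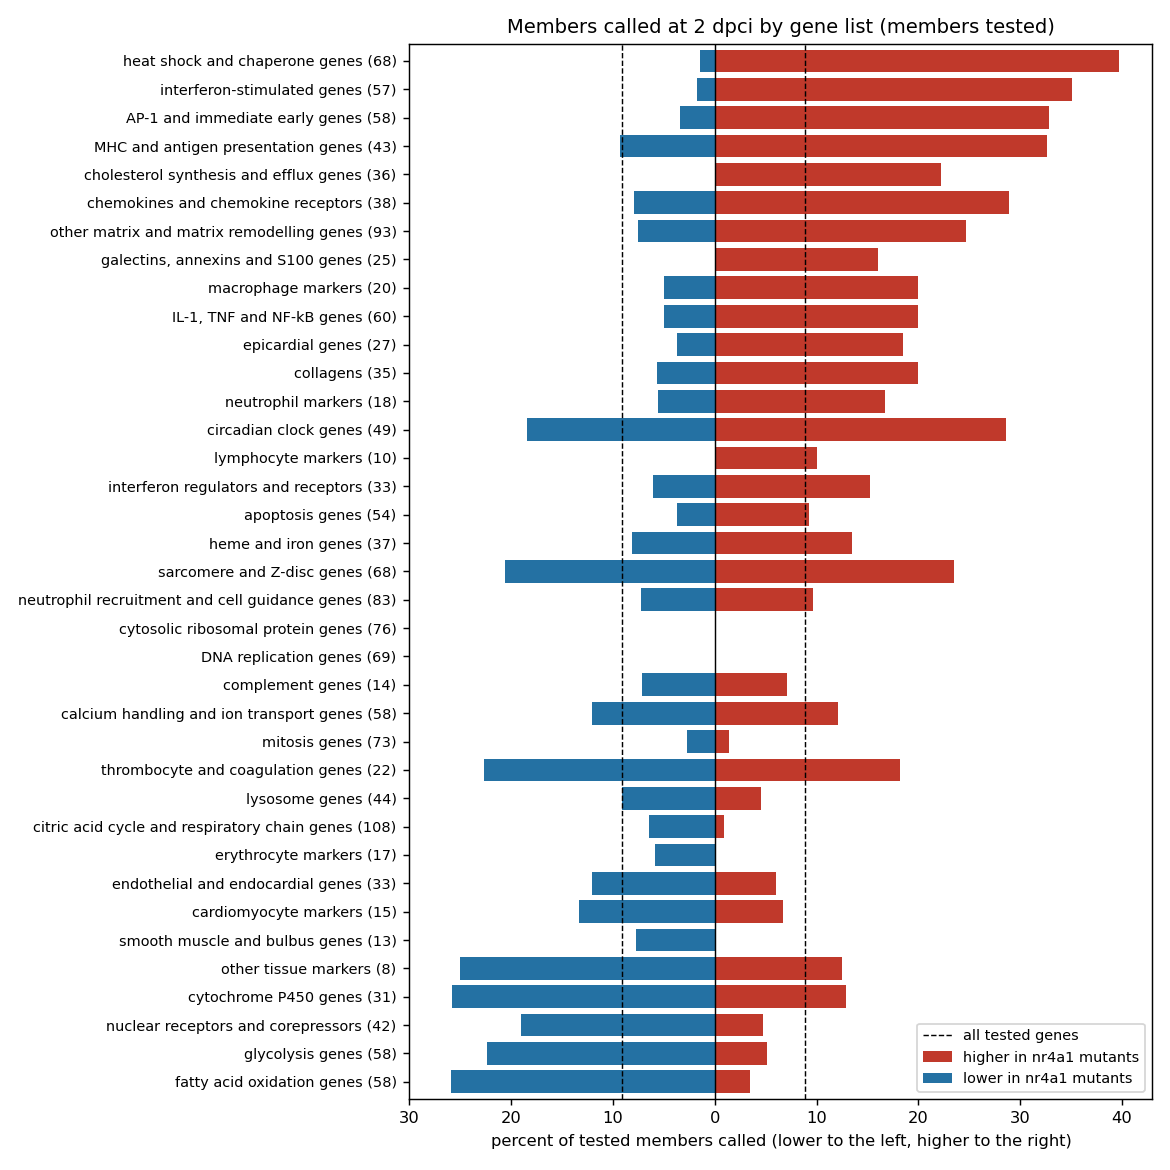
Percent of the tested members of each gene list called higher (red, to the right) or lower (blue, to the left) in nr4a1 mutants at 2 dpci, with the number of members tested in parentheses and dashed lines at 8.90% and 9.15%, the shares over all tested genes. Chaperone, interferon-stimulated, immediate early and antigen presentation genes lie at the higher end, and fatty acid oxidation and glycolysis genes at the lower end.

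Among genes of energy metabolism, lower calls outnumbered higher ones. Of 58 tested fatty acid oxidation genes 15 were lower and 2 higher (25.9% and 3.45%, against 9.15% and 8.90% of all genes). Their median log2 fold change was −0.33, against 0.012 at 0 dpci. cpt1b, the muscle gate of fatty acids into mitochondria, was called at 2 dpci alone and named after its values were seen, with 52.9 and 53.3 CPM in mutants against 88 and 90.2 CPM in wild type (−0.75 ± 0.0519), with 0.38 at 0 dpci (interaction −1.12, edgeR adjusted p = 1.5e-21). The pyruvate dehydrogenase kinase gene pdk2a was at 147 and 151 CPM in mutants against 377 and 367 CPM in wild type (−1.32 ± 0.0397). mlycd, whose enzyme removes malonyl-CoA, was at 4.55 and 4.25 CPM in mutants against 19 and 14.5 CPM in wild type (−1.93 ± 0.143). Both were lower before injury too. The coactivator of mitochondrial genes ppargc1a was at 18.7 and 18.8 CPM in mutants against 30.1 and 30.3 CPM in wild type (−0.69 ± 0.0765), with an opposite difference of 0.65 at 0 dpci. The higher members were the fatty acid ligase acsl4a (0.77 ± 0.0946) and the transporter slc27a4 (0.93 ± 0.182).

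Glycolysis genes were lower in 13 of 58 cases and higher in 3 (22.4% and 5.17%, against 9.15% and 8.90% of all genes). gpib, the phosphoglucose isomerase, was at 135 and 137 CPM in mutants against 261 and 275 CPM in wild type (on the log2 scale a change of −0.98 ± 0.0387), whereas it was higher in mutants before injury (1.12, interaction −2.09, edgeR adjusted p = 4.21e-42). pygma, the muscle glycogen phosphorylase, was called at 2 dpci alone, at 29.3 and 29.7 CPM in mutants against 62.5 and 59.5 CPM in wild type (−1.05 ± 0.0608). gapdh, an abundant transcript, was at 5156 and 5039 CPM in mutants against 7554 and 7566 CPM in wild type (−0.57 ± 0.022). The higher members were gck, hk2 and pfkfb3. hk2, a hexokinase gene, was at 67.4 and 63.8 CPM in mutants against 41.5 and 41.9 CPM in wild type (0.65 ± 0.0714), although lower in mutants before injury (−0.89). pfkfb3, whose enzyme makes an activator of phosphofructokinase, was at 33.3 and 34.4 CPM in mutants against 16 and 13.4 CPM in wild type (1.21 ± 0.0987).

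Of 108 genes of the citric acid cycle and respiratory chain, 7 were lower and 1 higher, and the median was −0.18. These were 6.48% and 0.926%, each below the share of all genes (9.15% and 8.90%). Among the lower ones, cs, the citrate synthase, was at 433 and 410 CPM in mutants against 735 and 725 CPM in wild type (on the log2 scale a change of −0.79 ± 0.0321). mdh2, the mitochondrial malate dehydrogenase, was at 1543 and 1521 CPM in mutants against 2344 and 2327 CPM in wild type (−0.61 ± 0.0258). The interaction with 0 dpci was downward in 57 of the 108 and upward in 10 (52.8% and 9.26%, against 18.3% and 18.6% of all genes). The adenine nucleotide carrier slc25a4 was at 1.38 and 1.33 CPM in mutants against 7.85 and 8.06 CPM in wild type (−2.55 ± 0.24). Its relative slc25a5 was at 8961 and 8812 CPM in mutants against 12594 and 12694 CPM in wild type (−0.51 ± 0.0216, or −0.48 and not called with library size in place of TMM).

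The corepressor ncor1, through which unliganded nuclear receptors silence their targets, was at 134 and 143 CPM in mutants against 313 and 308 CPM in wild type (on the log2 scale a change of −1.16 ± 0.0392, edgeR adjusted p = 1.87e-35). Its log2 fold change was −0.40, −0.62 and −0.39 at 0, 7 and 21 dpci, and the difference from 0 dpci passed (interaction −0.76, edgeR adjusted p = 2.32e-19). Of 42 tested nuclear receptors and corepressors 8 were lower and 2 higher, and 14 were lower without mutant sample 2. The higher ones were nr4a3 (above) and thrab, a thyroid hormone receptor gene (0.97 ± 0.327), whose call was lost without mutant sample 2 (0.66) or wild-type sample 1 (0.72). Not on the nuclear receptor list was hif1aa, the oxygen-regulated subunit of the hypoxia factor, which was followed with neutrophil recruitment and cell guidance genes. hif1aa was at 23.1 and 21.7 CPM in mutants against 44.6 and 43.7 CPM in wild type (−0.98 ± 0.0723). Of the tested nuclear receptors and corepressors, 19% were lower and 4.76% higher, against 9.15% and 8.90% of all genes.

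Contractile genes were divided. Of 68 sarcomere and Z-disc genes 16 were higher and 14 lower (23.5% and 20.6%), against 8.90% and 9.15% of all genes. tnnc1a, the cardiac troponin C, was at 1130 and 1051 CPM in mutants against 2426 and 2432 CPM in wild type (on the log2 scale a change of −1.16 ± 0.0306, edgeR adjusted p = 1.28e-40). The cardiac myosin light chain myl7 was at 6753 and 6304 CPM in mutants against 9401 and 9418 CPM in wild type (−0.53 ± 0.031, or −0.48 and not called without mutant sample 2). At 0, 7 and 21 dpci the values were −1.22, −1.02 and −0.98 for tnnc1a and −0.49, −0.54 and −0.45 for myl7, and neither interaction with 0 dpci passed. tnnt2a, the cardiac troponin T and named after its values were seen, was at 3271 and 3190 CPM in mutants against 3471 and 3618 CPM in wild type (−0.13 ± 0.0277), short of the threshold. The thin filament regulator lmod2a was at 46.3 and 44.0 CPM in mutants against 114 and 122 CPM in wild type (−1.38 ± 0.0519).

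Among cardiomyocyte markers and sarcomere genes called higher were nppb, xirp1, flnca and tnni1d. nppb, the natriuretic peptide gene of strained cardiomyocytes, was at 456 and 439 CPM in mutants against 184 and 183 CPM in wild type (on the log2 scale a change of 1.28 ± 0.0383, edgeR adjusted p = 2.98e-38). xirp1, encoding an actin-binding protein of intercalated discs and damaged sarcomeres, was at 590 and 585 CPM in mutants against 301 and 295 CPM in wild type (0.98 ± 0.0323). Filamin C, flnca, a scaffold of Z-discs, was at 1126 and 1186 CPM in mutants against 805 and 822 CPM in wild type (0.51 ± 0.0287), a call lost without mutant sample 2 (0.46) or wild-type sample 1 (0.49). xirp1 and flnca were called at 2 dpci alone. tnni1d, a troponin I gene, was at 31.8 and 28.8 CPM in mutants against 7.43 and 7.75 CPM in wild type (1.99 ± 0.109), while at 0 dpci it was lower in mutants, at −3.53. The difference between these stages passed (interaction 5.52, edgeR adjusted p = 4.58e-39).

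Of 58 genes of calcium handling and ion transport 7 were higher and 7 lower (12.1% each, near the 8.90% and 9.15% of all genes). The calcium pump atp2a2a was at 2568 and 2614 CPM in mutants against 3704 and 3680 CPM in wild type (on the log2 scale a change of −0.51 ± 0.0238, or −0.50 and not called without mutant sample 1), whereas its paralog atp2a2b was higher (0.56 ± 0.0478). The pump's inhibitor phospholamban, pln, was at 1412 and 1309 CPM in mutants against 2273 and 2275 CPM in wild type (−0.74 ± 0.0276). Calsequestrin, casq2, which stores calcium, was at 366 and 352 CPM in mutants against 606 and 600 CPM in wild type (−0.75 ± 0.0335). Of these, atp2a2a, atp2a2b and pln were called at 2 dpci alone, whereas casq2 was lower at 0 dpci too (−0.58). Na,K-ATPase subunit genes went in both directions at every stage. atp1b1b was at 0.922 and 0.444 CPM in mutants against 10.6 and 10.3 CPM in wild type (−3.96 ± 0.207). In contrast, atp1a3a was at 30.7 and 32.4 CPM in mutants against 9.16 and 9.39 CPM in wild type (1.77 ± 0.103). The summed level of 15 cardiomyocyte markers was 54707 and 53131 CPM in mutants against 65862 and 66642 CPM in wild type, with 1 called higher (nppb) and 2 lower (tnnc1a and myl7), or 2 higher without mutant sample 1 and 1 lower without mutant sample 2. Their part in the lower levels of metabolic, contractile and calcium handling genes was not tested.

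Several genes of thrombocytes, the nucleated platelets of fish, were lower. itga2b, encoding the fibrinogen receptor chain CD41, was at 33.3 and 30.4 CPM in mutants against 82.6 and 82.8 CPM in wild type (on the log2 scale a change of −1.38 ± 0.0688, edgeR adjusted p = 1.38e-26), and it was called at 2 dpci alone, with −0.17, −0.23 and 0.36 at 0, 7 and 21 dpci. thbs1b, the thrombospondin of platelet granules, was at 97.4 and 95.5 CPM in mutants against 191 and 177 CPM in wild type (−0.93 ± 0.0466), likewise at 2 dpci alone. The receptor genes gp1bb (−1.07 ± 0.0796) and mpl (−0.86 ± 0.201) were lower. On the side of coagulation and fibrinolysis, tissue factor f3a was at 7.78 and 6.57 CPM in mutants against 2.72 and 2.40 CPM in wild type (1.48 ± 0.193) and was called at 2 dpci alone. The plasminogen activator gene plat was at 25.3 and 25.6 CPM in mutants against 15.7 and 13.7 CPM in wild type (0.79 ± 0.102). The whole list of 22 tested genes includes anxa2a and s100a10b. Of these 22, 4 were higher and 5 lower (18.2% and 22.7%, against 8.90% and 9.15% of all genes).

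Of 44 tested lysosome genes 2 were higher and 4 lower (4.55% and 9.09%), against 8.90% and 9.15% of all genes. The share of lower calls was thus that of all genes. The 4 lower ones, all hydrolases of glycan chains, were called at 2 dpci alone (9.09%, against 1.91% of all genes). glb1, the beta-galactosidase, was at 21.2 and 20.9 CPM in mutants against 33.6 and 30.5 CPM in wild type (on the log2 scale a change of −0.60 ± 0.0966). gla, the alpha-galactosidase, was at 0.98 and 0.987 CPM in mutants against 3.77 and 4.03 CPM in wild type (−1.98 ± 0.323). naglu (−0.70 ± 0.105) and naga were the others. The membrane protein gene scarb2a, in contrast, was at 156 and 148 CPM in mutants against 84.6 and 83.3 CPM in wild type (0.86 ± 0.0479). The median of the list was 0.11.

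**Figure D4:**
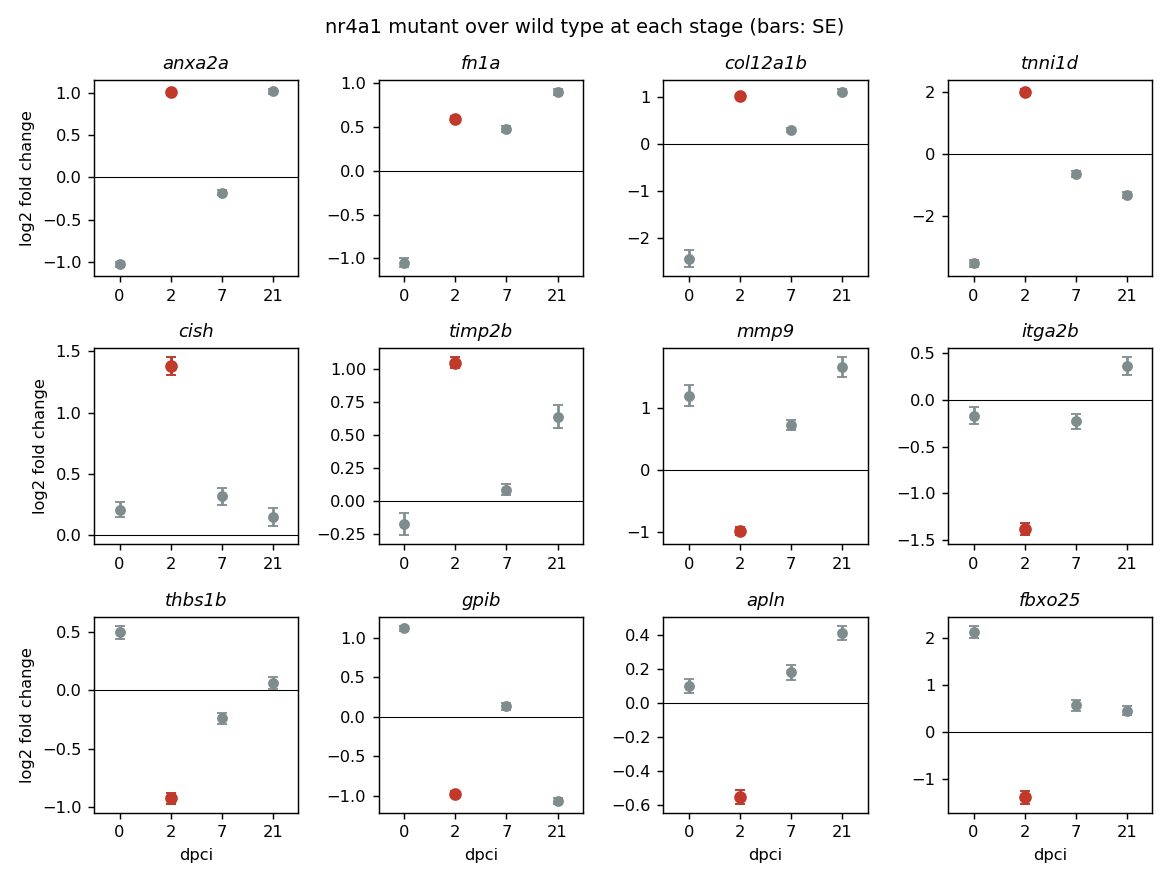
Log2 fold change of nr4a1 mutant over wild type (vertical, with SE bars) at 0, 2, 7 and 21 dpci (horizontal) for 12 genes, with 2 dpci in red. anxa2a, fn1a, col12a1b and tnni1d were lower in mutants at 0 dpci and higher at 2 dpci, gpib and fbxo25 the reverse, and cish, itga2b and apln differed beyond the threshold at 2 dpci alone.

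None of 69 tested DNA replication genes was called by edgeR or DESeq2 (median 0.10, with 13 at an unadjusted edgeR p under 0.05). From 0 to 2 dpci 60 of them rose in mutants and 60 in wild type, against 26.0% and 24.2% of all genes. Without wild-type sample 1, 1 of them was called higher and 1 lower at 2 dpci. Of 73 mitosis genes 1 was higher and 2 lower (1.37% and 2.74%, against 8.90% and 9.15% of all genes), and these counts changed when single samples were left out. Their median was −0.063, or −0.053 without mutant sample 1, −0.008 without wild-type sample 1 and −0.11 without wild-type sample 2. None of 76 cytosolic ribosomal protein genes was called by edgeR or DESeq2 (median −0.0049, with 27 at an unadjusted edgeR p under 0.05), and 1 was lower without mutant sample 1, with summed levels of 58216 and 59130 CPM in mutants against 58319 and 58894 CPM in wild type. Of 17 erythrocyte markers 1 (5.88%, against 9.15% of all genes), rhag, was lower (−0.64 ± 0.0941). Of 54 apoptosis genes 5 were higher and 2 lower (9.26% and 3.7%, against 8.90% and 9.15% of all genes). Without mutant sample 2 there were 8 higher and 0 lower, and without mutant sample 1 or wild-type sample 2 there was 1 lower. The higher ones included the survival genes bcl2l1 (0.63 ± 0.0719) and bcl2a (0.96 ± 0.184), as well as the p53 target phlda3 (1.04 ± 0.124), each called at 2 dpci alone.

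The response to injury itself was large in both genotypes. From 0 to 2 dpci, 26.0% of genes rose and 21.9% fell in mutants, and 24.2% rose and 19.4% fell in wild type. These counts depend on scaling, because without TMM factors the median injury response over all genes was 0.43 in mutants and 0.43 in wild type, in place of 0.02 in mutants and 0.03 in wild type. The calls then became 7471 higher and 1772 lower in mutants, in place of 4485 and 3776, and 7374 higher and 1474 lower in wild type, in place of 4187 and 3350. Values of injury responses are those with TMM factors and hold only under that scaling. The medians of the lists, set side by side in the plot of injury responses, were 2.25 in mutants and 2.23 in wild type for macrophage markers, and 0.60 in mutants and 0.57 in wild type for immediate early genes. For neutrophil markers the median was 1.39 in mutants and 2.06 in wild type, and for fatty acid oxidation genes −0.45 in mutants and −0.095 in wild type. It was 0.72 in mutants and 0.38 in wild type for interferon-stimulated genes. Cholesterol genes had a median of 0.46 in mutants and −0.29 in wild type. Since the 2 dpci samples enter both kinds of comparison, these medians are no separate evidence for the differences above.

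**Figure D5:**
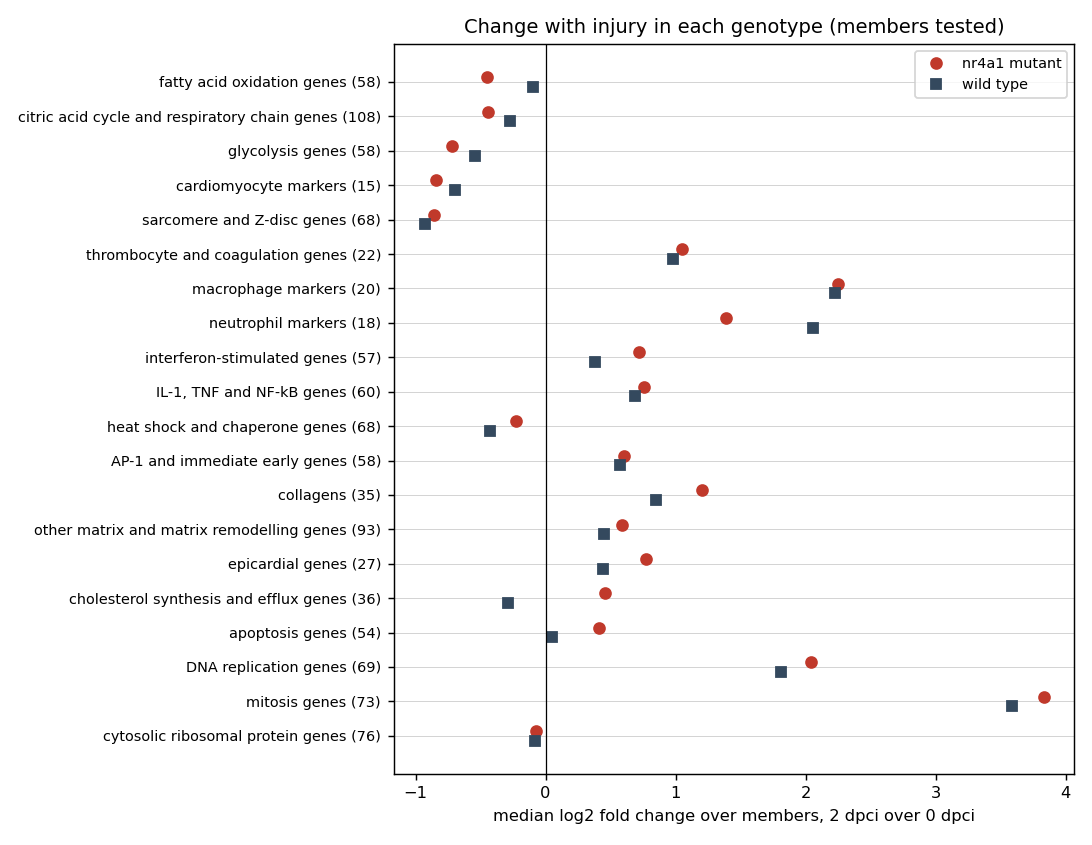
Median log2 fold change from 0 to 2 dpci (horizontal) over the tested members of 20 gene lists in nr4a1 mutants (red circles, upper) and wild type (dark squares, lower), with the number of members tested in parentheses. The medians for macrophage markers are 2.25 in mutants and 2.23 in wild type, and those for neutrophil markers 1.39 in mutants and 2.06 in wild type.

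The highest and lowest fold changes included genes not yet described. Among genes of at least 10 CPM in a genotype, lgals2b, a galectin gene, was at 13.4 and 12.7 CPM in mutants against 1.62 and 0.816 CPM in wild type (on the log2 scale a change of 3.42 ± 0.275). lratd1 was at 24.4 and 23.2 CPM in mutants against 4.24 and 5.15 CPM in wild type (2.34 ± 0.141), with −0.19 at 0 dpci (interaction 2.53, edgeR adjusted p = 3.97e-16). gfpt2, whose enzyme opens the hexosamine pathway, was at 22.7 and 24.8 CPM in mutants against 5.44 and 5 CPM in wild type (2.19 ± 0.129). At the other end, myrfl had no more than 3 counts in both mutant samples (0.173 and 0 CPM, against 29 and 29.3 CPM in wild type), at least 182-fold lower taking 3 counts per library as the floor. cyp2ad2 was at least 81.3-fold lower on the same floor (0.0577 and 0.0494 CPM in mutants against 13.1 and 13 CPM in wild type). hhatlb, which had more counts, was at 0.634 and 0.642 CPM in mutants against 23.7 and 22.5 CPM in wild type (−5.16 ± 0.192). asb15b, a muscle gene of the ubiquitin ligase family, was at 3.57 and 3.16 CPM in mutants against 22.7 and 22.5 CPM in wild type (−2.75 ± 0.141). gnb5b, a G protein subunit gene, was at 1.90 and 3.26 CPM in mutants against 19.6 and 20.3 CPM in wild type (−2.92 ± 0.154). At 0 dpci cyp2ad2, hhatlb, asb15b and gnb5b were lower in mutants too, and myrfl was not called.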

How the data were processed

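Per the study's methods and the submitters' processing notes, the authors checked reads with FastQC, aligned them with STAR to GRCz11 and counted reads per gene with featureCounts. The deposited table holds raw counts for 31351 genes in 16 samples, and whether counting used strand is not given in the sources used here. Counts were fitted with edgeR 4.0.16 (R 4.3.3), with TMM factors, 1 coefficient for each of 8 conditions and quasi-likelihood F tests, so that all 16 samples shared 1 estimate of the spread (common biological coefficient of variation 3.41%, prior degrees of freedom 54.8). Genes needed 10 counts in at least 2 of the 4 samples of 2 dpci. DESeq2 1.42.0 was an alternative. Per the study's methods, its own DESeq2 test took batch effects into account. The sample labels used here name no batch, so none was fitted. Whether differences of genotype or stage include a batch was not tested. The fit was also run on simulated counts with the same spread for every gene and no change between stages outside the genes altered on purpose. That run cannot show how the fit performs on these data.

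The 38 gene lists hold 1882 symbols, 1780 of them in the table, 40 by an older symbol, and fgr was left out because its only match was another gene. The comparison, the lists and the tests were chosen with earlier results of these data known, so list counts are descriptions. Genes followed were those the study names, the 8 highest and 8 lowest fold changes at 10 CPM or more with samples apart, and the 6 highest and 6 lowest CPM differences. They also took in up to 4 called members of a list in each direction, defining markers and the NR4A family. The genes leading those called at 2 dpci alone or in opposite directions at 0 dpci completed them. Not all are described above. Of those the study names, cxcl12a, epha4a, tnfrsf1b, irf8, loxa and col2a1b were not called in the reported fit. Over all fits, log2 fold changes ran from 0.36 to 0.50 for cxcl12a and from 0.0043 to 0.066 for epha4a. They ran from −0.12 to −0.046 for tnfrsf1b and from 0.077 to 0.20 for irf8. akap6 was called lower (−0.88 to −0.69). List members called at 2 dpci alone, and others so described, were added after their values were seen. Some genes known only by clone names are not reported here. The alternatives were other scaling, filters, samples and tests, and each sample left out. Sample numbers did not pair samples.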

Additional observations from a re-analysis of the deposited data

Results flagged for a closer look

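Each gene below had a genotype difference at 2 dpci that differed from that at 0 dpci by edgeR's interaction test (Benjamini-Hochberg adjusted over all genes). That outcome follows from how the genes were chosen. All 144 and 172 genes called in opposite directions at these stages passed it, and being called at 2 dpci alone requires it. The interaction p-values here are therefore no separate evidence. Among genes of at least 10 CPM in a genotype called at 2 dpci and in the opposite direction at 0 dpci, among the largest upward interactions were those of tnni1d (log2 fold change 5.52, edgeR adjusted p = 4.58e-39), gstm.2, a glutathione transferase gene (3.53, from 1.34 at 2 dpci and −2.19 at 0 dpci), col12a1b (3.47, from 1.03 and −2.44) and sgsm2 (2.69, from 1.79 and −0.89). Large downward interactions were those of ly97.3 (−5.13, from −1.44 at 2 dpci and 3.69 at 0 dpci), fbxo25, a ubiquitin ligase subunit gene (−3.51, from −1.38 and 2.13), and zbtb16a, a zinc finger repressor gene induced by glucocorticoids in mammals (−2.70, from −0.69 and 2.00).

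Among genes called at 2 dpci alone in their direction, cish, a feedback inhibitor of Stat5 signalling, was at 52.0 and 54.9 CPM in mutants against 22.6 and 18.6 CPM in wild type, with an interaction of 1.17 (edgeR adjusted p = 4.14e-16). prrx1a, a homeobox gene of mesenchyme, was at 19.3 and 22.6 CPM in mutants against 8.53 and 7.96 CPM in wild type, with an interaction of 1.24 (edgeR adjusted p = 4.55e-06). klhl29 was at 2.65 and 3.55 CPM in mutants against 10.9 and 11.9 CPM in wild type, with an interaction of −2.60, and bnip4 at 4.50 and 3.16 CPM in mutants against 10.4 and 12.5 CPM in wild type, with an interaction of −1.67.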

How the results depend on the processing

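The calls at 2 dpci changed little with scaling, filter or tool: outside the fold threshold test, counts ran between 1333 and 1720 higher and between 1343 and 1699 lower genes, without any count moving by over 1.5 times, and DESeq2 made 86.4% of the higher and 84.9% of the lower calls. With the threshold of 0.5 placed inside the test, 571 higher and 648 lower genes were called, interactions passed for 1878 genes against 0 dpci, 816 against 7 dpci and 1368 against 21 dpci, and 111 genes in place of 606 were called at 2 dpci alone. With library size alone, injury responses gave 7471 higher and 1772 lower genes in mutants and 7374 and 1474 in wild type. Counting by adjusted p alone, 44.4% of genes on the chromosome of nr4a1 were called, in place of 20%, against 40.4% on other chromosomes, in place of 17.4%. Leaving out a sample in turn, with the lone sample assumed to vary like the other conditions, gave 1349 to 1432 higher and 1394 to 1444 lower genes, of which 1173 to 1238 higher and 1219 to 1267 lower ones were shared with the reported ones. Of 248 called genes that were followed, 161 kept their call under every alternative run, none changed sign, and 4 genes that had not passed changed sign. Of 1482 list counts and medians, 194 moved.

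The sample number as a replicate block gave 1517 higher and 1565 lower genes. The numbers did not pair the samples, since the deviations of mutants and wild type at 2 dpci correlated with r = −0.00249. With 2 samples a genotype, low genes carry the least certain values. Promoter sequences were not used here, so no motif search was run.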

Other observations

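Circadian clock genes differed in 23 of 49 tested cases at 2 dpci, 14 higher and 9 lower (28.6% and 18.4%, against 8.90% and 9.15% of all genes). The period gene per1b was at 44.5 and 46.1 CPM in mutants against 20.3 and 21.0 CPM in wild type (on the log2 scale a change of 1.13 ± 0.07). nr1d1, the Rev-erb alpha repressor, was at 10.3 and 9.43 CPM in mutants against 3.72 and 3.93 CPM in wild type (1.36 ± 0.142). nfil3-5, a repressor of D-box genes, was at 32.2 and 29.8 CPM in mutants against 83.4 and 73.9 CPM in wild type (−1.35 ± 0.0663). The difference of nfil3-5 was −5.40 at 0 dpci and 1.59 at 21 dpci. Neither the sample labels nor the study's methods give the hour of collection, and its part in these differences was not tested.

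Of 36 tested sterol genes 8 were called higher (22.2%, against 8.90% of all genes). cyp51, of the cholesterol pathway, was at 5.88 and 5.28 CPM in mutants against 3.87 and 2.86 CPM in wild type (0.73 ± 0.216), with −1.76 at 0 dpci (interaction 2.49, edgeR adjusted p = 5.33e-10). ldlra, the LDL receptor gene, was at 2.94 and 2.76 CPM in mutants against 1.73 and 1.17 CPM in wild type (0.97 ± 0.294). Both calls were lost without wild-type sample 2 (0.52 for cyp51 and 0.72 for ldlra). The iron exporter slc40a1 was lower at 2 dpci (−0.74 ± 0.0622) and at no other stage.

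By gene order in the RefSeq table of another assembly, 20% of 565 tested genes on the chromosome of nr4a1 were called at 2 dpci, against 17.4% of 14239 on other chromosomes. The shares of 25 chromosomes ran between 14.9% and 23%, and that of nr4a1 ranked 4 from the highest. Among the nearest tested genes on both sides of nr4a1, 4 of 20 (20%), 13 of 50 (26%), 25 of 100 (25%) and 49 of 200 (24.5%) were called.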
